A study of Mus musculus with 6 samples.

Results

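The 9 genes Tln1, Tln2, Vcl, Flna, Flnc, Actn1, Actn4, Zyx and Plec encode the talins, vinculin, filamins A and C, the alpha-actinins 1 and 4, zyxin and plectin. They were taken by symbol from a table of 50763 genes, and all 9 had enough counts to be tested. They were selected on the measured difference between the genotypes in these libraries and its relation to exonic length, so their own values are a description and carry no test. RNA was sequenced from embryonic fibroblasts, which are connective tissue cells grown out of dissociated embryos, here taken at E13.5 on a C57BL/6 background (strain label C57BL/6J) and kept in culture for a short time. The K68R cells carried a CRISPR knock-in of Sod2, the gene of the mitochondrial manganese superoxide dismutase, in which arginine replaces a lysine and acetylation at that position is no longer possible. The WT cells carried the normal gene. Each genotype had 3 libraries, and the labels give both genotypes the same strain and the same brief culture, with no further treatment.

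Cells hold on to the matrix around them at focal adhesions. There integrins in the membrane bind the matrix outside, talin binds the tail of the integrin inside, and vinculin joins talin to actin filaments when the link is under tension. Alpha-actinins and filamins tie actin filaments into bundles and networks, zyxin gathers at strained filaments, and plectin ties intermediate filaments to actin and to the membrane. In fibroblasts these proteins carry the pull of stress fibres, and in striated muscle several of them sit at the Z-disc and the membrane beside it.

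Because talins, filamins and actinins come as pairs of related genes, the coding stretches where each pair was most alike are shown first, since reads from such a stretch could in principle have come from either gene. Each line gives the longest identical run in capitals with up to 30 coding bases on either side, from GENCODE M21 transcripts of build GRCm38.
Tln1: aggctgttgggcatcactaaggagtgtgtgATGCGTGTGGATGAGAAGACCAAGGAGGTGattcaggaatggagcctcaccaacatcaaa
Tln2: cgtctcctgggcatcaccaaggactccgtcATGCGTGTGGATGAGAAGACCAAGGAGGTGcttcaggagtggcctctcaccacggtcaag
Flna: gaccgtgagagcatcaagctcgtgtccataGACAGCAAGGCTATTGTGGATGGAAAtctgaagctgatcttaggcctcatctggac
Flnc: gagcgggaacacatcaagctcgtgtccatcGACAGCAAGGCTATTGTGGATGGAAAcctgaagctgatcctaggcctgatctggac
Actn1: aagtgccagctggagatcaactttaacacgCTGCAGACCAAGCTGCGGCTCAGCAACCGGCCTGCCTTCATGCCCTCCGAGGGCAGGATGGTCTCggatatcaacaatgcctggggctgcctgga
Actn4: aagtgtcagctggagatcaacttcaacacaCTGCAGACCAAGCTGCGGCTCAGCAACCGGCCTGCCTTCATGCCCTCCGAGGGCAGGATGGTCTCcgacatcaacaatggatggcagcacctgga
The longest identical run was 30 bases between Tln1 and Tln2, 26 bases between Flna and Flnc and 65 bases between Actn1 and Actn4. Of all stretches of 50 bases in the longest coding transcript, 0 of 8344 in Tln1 were found in Tln2, 0 of 8407 in Flna were found in Flnc, and 16 of 3685 in Actn1 were found in Actn4. Nearly all of each gene could thus be told apart from its relative over 50 bases, and the 65-base stretch is the place where the 2 actinins could lose or exchange reads.

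All 9 genes were higher in every K68R library than in every WT library. Over all 16730 genes tested, 41.3% were higher in K68R without overlap and 41.0% were lower without overlap. Levels are CPM, that is, read pairs of a gene scaled to a common library size after TMM normalization, and a difference is log2 of K68R over WT with its standard error (SE) from the edgeR fit. The 9 genes together took 1.28% ± 0.00639 of all counts in K68R libraries and 0.344% ± 0.00308 in WT libraries (SD, n = 3 each). Since the samples are bulk RNA, more cells of a type and more RNA per cell cannot be told apart.

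**Figure D1:**
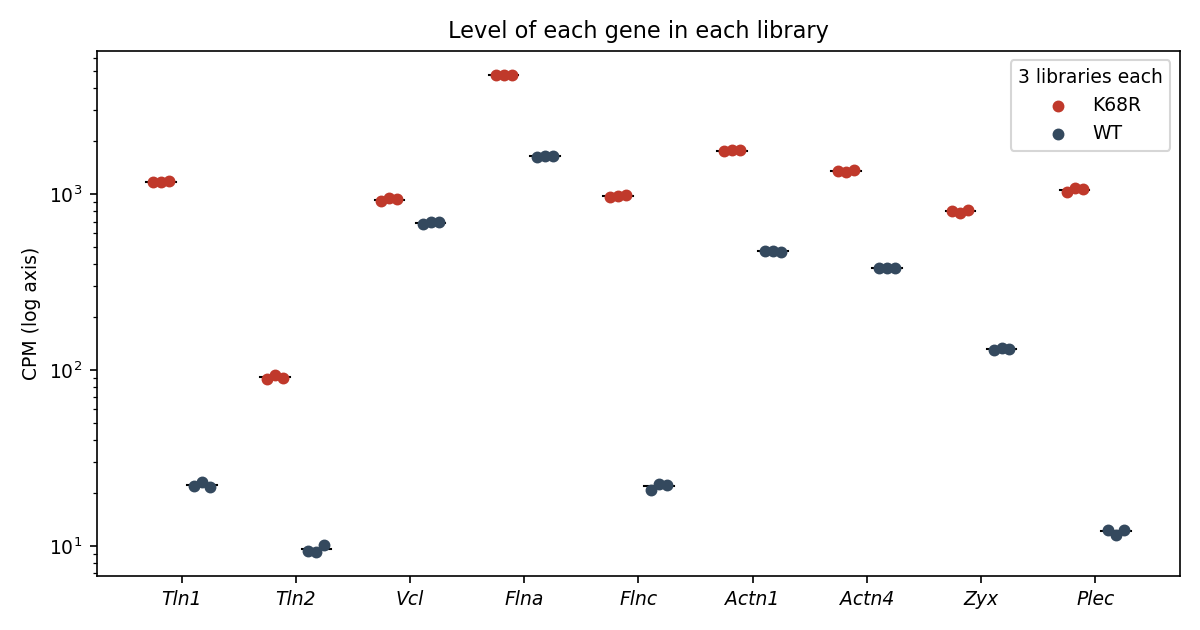
CPM on a log axis for each of the 9 genes, with 1 point per library, 3 K68R libraries left of 3 WT libraries, and a short line at each mean. The widest gaps are those of Plec, Tln1 and Flnc, whose WT libraries lie between 11.6 and 23.2 CPM, and the narrowest is that of Vcl.

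The talins are the large adaptors that bind integrin tails and switch integrins on. Tln1 lies at chr4:43531513-43562583 on the minus strand of mm39, with 60 merged exons that cover 9170 bases. Tln1 had 1169, 1182 and 1184 CPM in the K68R libraries, against 21.9, 23.2 and 21.7 CPM in the WT libraries. Its level was thus nearly alike within each genotype and 53.1-fold higher in K68R, a log2 difference of 5.73 ± 0.0262 (SE, n = 3 each). Tln1 is the talin that most tissues use, and the WT values rest on 725 to 901 read pairs per library.

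Tln2, the talin most abundant in heart, muscle and brain, lies at chr9:67124371-67541357 on the minus strand, with 67 merged exons and 15042 exonic bases. Tln2 had 89.3, 94.3 and 90.9 CPM in the K68R libraries, against 9.31, 9.27 and 10.1 CPM in the WT libraries, a difference of 3.26 ± 0.0467 (9.58-fold). The genotypes were far apart in both talins, but by less in Tln2. Counted per exonic base, Tln2 made up 4.52% ± 0.102 of the 2 talins in K68R and 20.8% ± 1.29 in WT (SD, n = 3 each), so the share of Tln1 was the larger one in both genotypes and larger still in K68R.

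Vinculin is the protein that talin recruits when it is stretched. Vcl lies at chr14:20979436-21083744 on the plus strand, with 22 merged exons and 5501 exonic bases. Vcl had 912, 951 and 936 CPM in the K68R libraries, against 678, 695 and 700.4 CPM in the WT libraries, a difference of 0.43 ± 0.0183 (1.35-fold). The libraries did not overlap, yet this was the narrowest gap of the 9 genes. Its transcript was also the poorest in G and C, at 48.64%, with 41.12% in a 3' untranslated region of 1943 bases.

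The filamins cross-link actin into networks and hold many membrane receptors. Flna, the widely used and X-linked filamin A, lies at chrX:73267067-73293787 on the minus strand, with 50 merged exons and 8813 exonic bases. Flna had 4789.6, 4797 and 4766 CPM in the K68R libraries, against 1632, 1648 and 1659 CPM in the WT libraries, a difference of 1.54 ± 0.0157 (2.91-fold). Its libraries varied little within a genotype and lay far apart between the genotypes. Among the sex-linked genes, Xist, the RNA of the silenced X, averaged 175 CPM in K68R and 136 CPM in WT, a difference of 0.37 that was -0.65 with length offsets. Ddx3y, a Y-linked helicase gene, averaged 51.0 CPM in K68R and 76.8 CPM in WT. Both were present in every library, and their part in the Flna difference was not tested.

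Flnc encodes filamin C, the filamin of skeletal and heart muscle, which in humans is a cardiomyopathy gene. It lies at chr6:29433150-29461888 on the plus strand, with 49 merged exons and 9232 exonic bases. Flnc had 969.8, 972 and 989 CPM in the K68R libraries, against 20.8, 22.4 and 22.3 CPM in the WT libraries, a difference of 5.49 ± 0.0270 (44.9-fold). Per exonic base, Flnc made up 16.3% ± 0.193 of the sum of Flna and Flnc in K68R and 1.25% ± 0.0428 in WT (SD, n = 3 each). Flnc was thus a clear minority of this pair in K68R and a trace in WT.

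Markers of skeletal muscle moved with Flnc. Of 13 markers listed, 11 were tested and all 11 were called higher in K68R by edgeR at an adjusted p under 0.05. Of all genes tested, 40.8% were called higher. Their median difference was 2.79, and their summed level ran from 298 to 300.1 CPM in K68R libraries and from 85.6 to 88.4 CPM in WT libraries. None was at 0 in all libraries, but Myf6 and Ckm were too low to be tested. The myogenic factor Myod1 ran from 3.29 to 3.92 CPM in K68R and from 0.416 to 0.606 CPM in WT. The part of muscle cells in the Flnc difference was not tested.

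Alpha-actinins are antiparallel dimers that bundle actin filaments. Actn1 lies at chr12:80214316-80307165 on the minus strand, with 25 merged exons and 4660 exonic bases. Actn1 had 1756, 1786 and 1784 CPM in the K68R libraries, against 476, 475 and 470.5 CPM in the WT libraries, a difference of 1.91 ± 0.0176 (3.75-fold). Actn4, its close relative that also enters the nucleus, lies at chr7:28592673-28661799 on the minus strand, with 21 merged exons and 7678 exonic bases. Actn4 had 1356, 1345 and 1370.0 CPM in the K68R libraries, against 380.2, 379.6 and 381 CPM in the WT libraries, a difference of 1.84 ± 0.0181 (3.57-fold). The 2 actinins kept nearly the same proportion: per exonic base, Actn4 was 31.7% ± 0.280 of the pair in K68R and 32.8% ± 0.178 in WT. With offsets for exonic length and GC content, described below, they parted, with 2.45-fold for Actn1 and 1.07-fold for Actn4. The 65-base stretch printed above is common to both, and 4.40% of the exonic bases of Actn4 overlap Capn12 on the other strand, whose reads were counted without regard to strand.

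Zyxin is a LIM protein that moves to strained stress fibres and brings Ena/VASP proteins there. Zyx lies at chr6:42326507-42337158 on the plus strand, with 12 merged exons and 4393 exonic bases, the shortest of the 9. Zyx had 807, 786 and 813 CPM in the K68R libraries, against 129.7, 134 and 133 CPM in the WT libraries, a difference of 2.60 ± 0.0212 (6.08-fold). It was thus further apart than either actinin although it is shorter. Of its exonic bases, 5.40% overlap Epha1 on the other strand.

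Plectin is a giant linker that joins intermediate filaments to actin, to hemidesmosomes and to the nuclear envelope. Plec lies at chr15:76055174-76115578 on the minus strand, with 44 merged exons and 17515 exonic bases, the longest of the 9 and the richest in G and C, at 61.27% of its longest coding transcript. Plec had 1027, 1082 and 1072 CPM in the K68R libraries, against 12.3, 11.6 and 12.4 CPM in the WT libraries, a difference of 6.45 ± 0.0300 (87.3-fold). This was the widest gap among the 9 genes and place 17 among the 16730 genes tested, ordered from the most positive difference down. On the same order Tln1 had place 42, Flnc place 65, Tln2 place 611 and Zyx place 1038. Actn1 had place 1819, Actn4 place 1933, Flna place 2487 and Vcl place 5773.

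The 9 genes thus spread over a wide range. In K68R, 5 of them (Plec, Tln1, Flnc, Tln2 and Zyx) were at least 4-fold higher, as were 10.1% of all genes tested, and 3 (Plec, Tln1 and Flnc) were at least 16-fold higher, as were 1.72% of all genes tested. The median difference of the 9 was 2.60, beside -0.01 over all genes tested. The 9 were also unlike the rest in build: their median exonic length was 8813 bases, beside 3519 over all genes tested, and their median GC content was 55.4%, beside 50.1%.

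Length went with the difference over the whole table. The median log2 difference ran from -0.57 in genes under 1000 exonic bases to 0.18 between 4000 and 6000, 0.32 between 6000 and 8000, 0.53 between 8000 and 12000 and 0.79 above 12000. Against their own length class, 7 of the 9 genes lay above the upper quartile. The others were Flna, at 1.54 in a class whose upper quartile was 1.65, and Vcl, at 0.43 in a class whose upper quartile was 1.11. The 3 genes with the widest gaps were near the top of their classes. Between 8000 and 12000 bases only 5 of 1480 genes exceeded Tln1 and 9 exceeded Flnc, and above 12000 bases 1 of 1036 genes exceeded Plec. Tln2, nearly as long as Plec, was exceeded by 85 of the same 1036 genes.

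Length alone did not order the 9 genes. Across them, Spearman's rho between the difference and exonic length was 0.65, and with the GC content of the longest coding transcript it was 0.80. These are descriptions over 9 genes that share all 6 libraries. Over all genes tested the same measures were 0.37 with length (16730 genes) and 0.35 with GC content (15673 genes). Nor did GC content alone order them: Tln2, at 53.09% GC, had a difference of 3.26, against 1.54 in Flna at 53.96% and 1.91 in Actn1 at 53.00%. Flna and Tln1 have 8813 and 9170 exonic bases, but their differences were 1.54 and 5.73, and their GC contents are 53.96% and 56.98%. Flnc, at 58.44% GC, exceeded Flna, and Tln2 stayed below Tln1 although it is much longer.

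**Figure D2:**
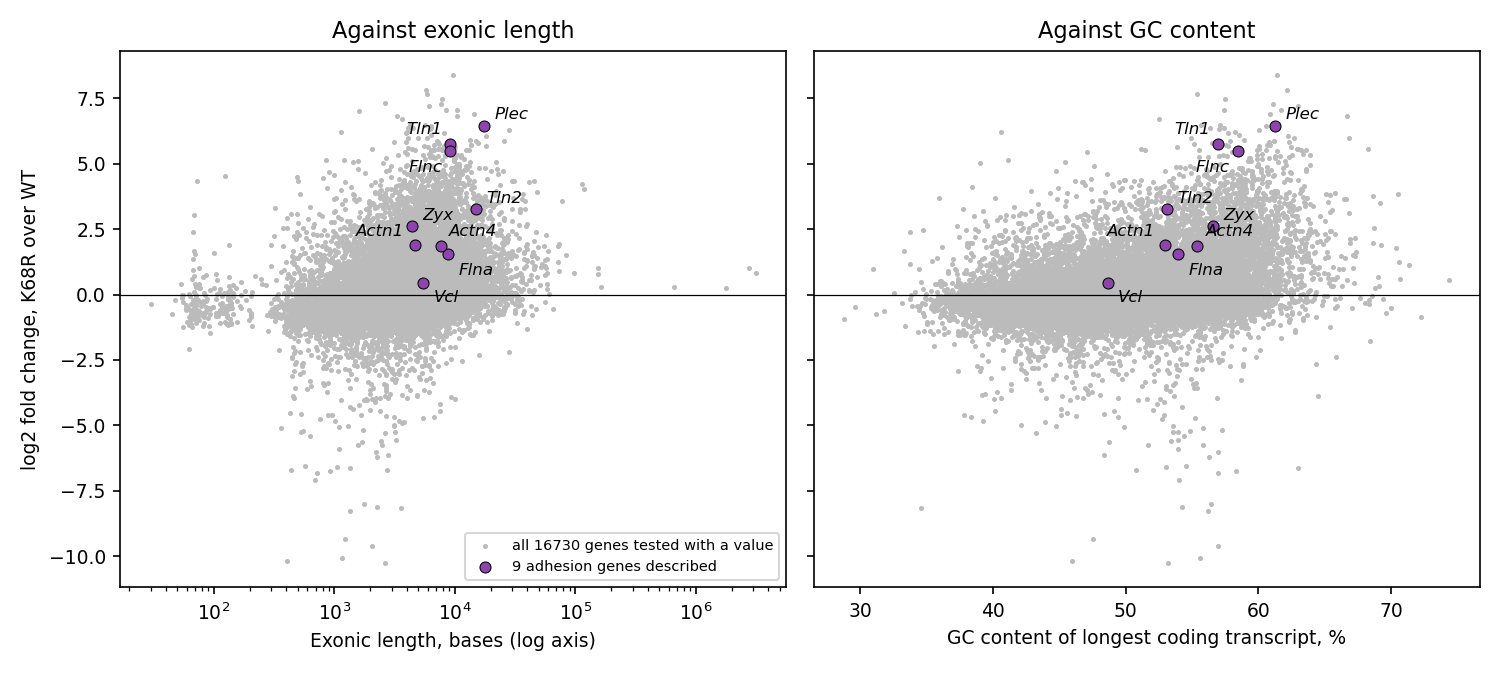
Log2 fold change of K68R over WT for all genes tested (grey) and the 9 adhesion genes (purple), against exonic length on a log axis at left and against GC content in percent at right. Plec, Tln1 and Flnc lie high in both panels, with differences of 6.45, 5.73 and 5.49, and Vcl lies lowest of the 9 at 0.43.

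Classes of both length and GC content narrow the comparison. Genes between 8000 and 12000 bases with 55% to 60% GC, the class of Tln1 and Flnc, had a median difference of 3.05 and an upper quartile of 4.01 over 176 genes, and both genes lay above it. The class of Flna, with 50% to 55% GC, had quartiles of 0.42 and 2.08, and Flna at 1.54 lay between them. The class of Actn4 had quartiles of 1.13 and 3.26, and Actn4 at 1.84 lay between them too. The other 5 genes lay above the upper quartile of their class: Plec at 6.45 over 5.71 in a class of only 21 genes, Tln2 at 3.26 over 2.68, Zyx at 2.60 over 2.46, Actn1 at 1.91 over 1.17 and Vcl at 0.43 over 0.17. Vcl was thus above the upper quartile of genes of its length and GC content, but not of genes of its length alone, whose median of 0.18 it exceeded.

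The same was seen when smooth trends were taken out per library. With offsets for exonic length, under which 80.4% of all genes tested were called, the difference was 5.43 for Plec, 4.89 for Tln1, 4.65 for Flnc, 2.26 for Tln2, 2.195 for Zyx, 1.46 for Actn1, 1.08 for Actn4, 0.72 for Flna and -0.12 for Vcl. These offsets moved the median of all genes tested to -0.21. With offsets for length and GC content, which were possible for 15673 genes and under which 75.9% of them were called, it was 3.31 for Tln1, 2.73 for Flnc, 2.37 for Plec, 1.51 for Tln2, 1.29 for Actn1, 1.28 for Zyx, 0.30 for Vcl, 0.10 for Actn4 and -0.0017 for Flna, beside a median of -0.07 over those genes. The direction therefore turned for Vcl with length offsets, while Flna was left with next to no difference (0.999-fold) with length and GC offsets. With both offsets Tln1 and Flnc exceeded Plec. The offsets attribute to length and GC content every trend that follows them, whatever its source, and the source was not tested.

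**Figure D3:**
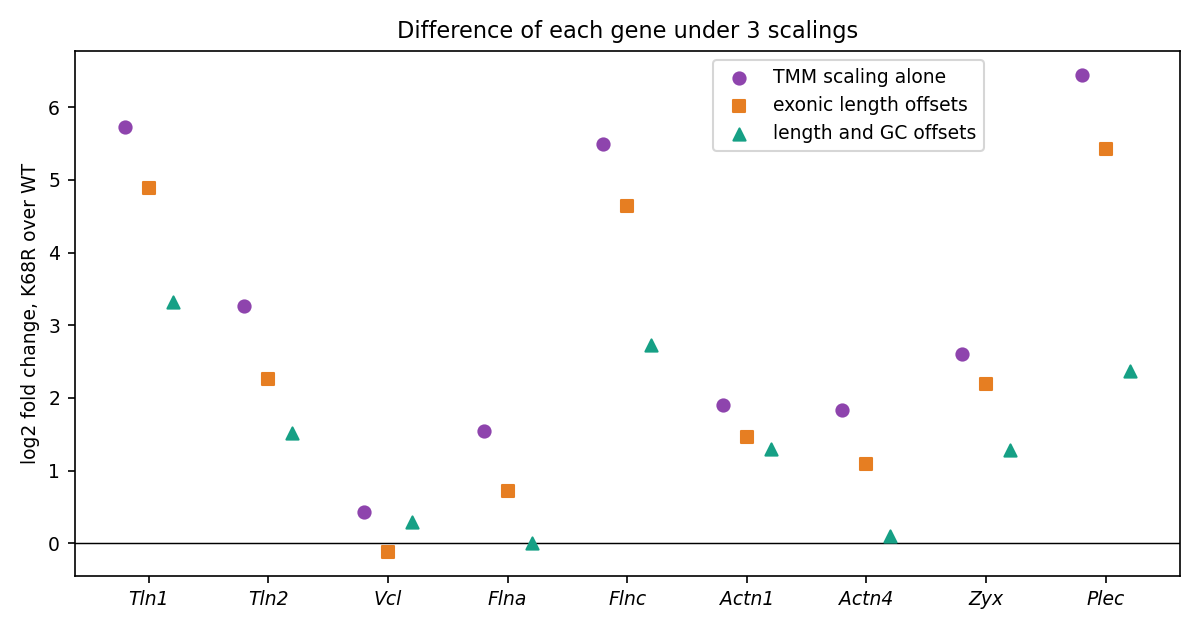
Log2 fold change of K68R over WT for each of the 9 genes with TMM scaling alone (circles), with exonic length offsets (squares) and with length and GC offsets (triangles). Tln1, Flnc and Plec stay above 2 under all 3, while Vcl is at -0.12 with length offsets and Flna at -0.0017 with length and GC offsets.

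Levels can be set against each other only per length, here as FPKM (CPM divided by the exonic length in kilobases). In K68R the order was Flna at 543, Actn1 at 381, Zyx at 183, Actn4 at 177, Vcl at 169.6, Tln1 at 128.5, Flnc at 106, Plec at 60.5 and Tln2 at 6.08 FPKM, and no neighbours in this order overlapped between libraries. In WT it was Flna at 187, Vcl at 126, Actn1 at 102, Actn4 at 49.5, Zyx at 30.05, Tln1 at 2.42, Flnc at 2.37, Plec at 0.692 and Tln2 at 0.636 FPKM. There Tln1 overlapped Flnc, and Plec overlapped Tln2. In WT libraries the FPKM of Vcl and Flna thus lay far above those of either talin. FPKM takes no account of GC content, which was 48.64% in Vcl, 53.96% in Flna, 56.98% in Tln1 and 53.09% in Tln2. Its part in these levels was not tested. Per base of the longest coding transcript, a choice added after seeing the data, Actn4 had 350.02 FPKM in K68R and 98.1 in WT, since its exonic length is 1.98 times that transcript. Actn4 then stood before Zyx in K68R, and in WT Plec at 0.784 and Tln2 at 0.789 changed places.

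The start regions were read for 2 motifs known from adhesion genes: the CArG box, bound by serum response factor (SRF), which drives many actin and adhesion genes when actin assembles, and the GC box GGGCGG, searched on both strands and bound by Sp factors. The RefSeq promoter table of build GRCm38.p6 held 7 of the 9 genes, and Tln2 and Plec were not matched. In the 250 bases upstream of the start, 1 of the 7 genes had a CArG box, namely Vcl, the gene with the narrowest gap. Of the 32851 promoters listed, 1.47% had one. GC boxes were found in all but Tln1, and in 32.7% of all promoters. The regions of Vcl and Tln1 are printed because they are the contrast between these 7 genes, with the CArG box in capitals.
Vcl, chr14:20929148-20929397, plus strand: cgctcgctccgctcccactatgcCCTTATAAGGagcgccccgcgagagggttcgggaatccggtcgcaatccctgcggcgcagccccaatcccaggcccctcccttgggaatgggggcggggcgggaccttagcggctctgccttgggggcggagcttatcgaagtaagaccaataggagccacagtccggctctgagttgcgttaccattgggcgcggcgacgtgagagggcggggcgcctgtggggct
Tln1, chr4:43562584-43562833, minus strand: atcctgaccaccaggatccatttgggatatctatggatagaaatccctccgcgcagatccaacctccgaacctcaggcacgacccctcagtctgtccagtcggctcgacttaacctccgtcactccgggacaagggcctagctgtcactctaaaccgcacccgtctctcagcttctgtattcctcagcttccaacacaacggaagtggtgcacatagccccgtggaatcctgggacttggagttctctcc
The Vcl box starts 227 bases before the start of the transcript, and the Vcl region holds 4 GC boxes. A match is a run of letters and was not read as a site in use.

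For each gene, the gene whose 6 libraries followed it most closely was found among 10562 genes, by Euclidean distance of centred log2 CPM. These were Tnrc18 for Tln1 (distance 0.123), Ep300 for Tln2 (0.0739), Atp2a2 for Vcl (0.0332), Col3a1 for Flna (0.0284), Scaf1 for Flnc (0.115), Hip1 for Actn1 (0.0548), Sun2 for Actn4 (0.0357), Palld for Zyx (0.0578) and Col4a2 for Plec (0.114). With 3 libraries per genotype such a match says little more than that the differences are of one size, for example 6.42 in Col4a2, a basement membrane collagen gene, and 6.45 in Plec. Palld was the one match that was also on the list of adhesion genes.

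The other genes of the adhesion machinery, 107 on 11 lists, also lay more often on the K68R side. The lists were chosen with earlier results of these data known. The genes tested from them had a median exonic length of 4746.5 bases, beside 3519 over all genes tested. Of 106 tested, 75 (70.8%) were called higher in K68R and 22 (20.8%) lower, against 40.8% and 40.5% of all genes tested, and 9 were not called. At least 2-fold higher were 46, against 22.2% of all genes tested. At least 2-fold lower was none of the 106, a direction for which no share over all genes is given here. Their median difference was 0.64, beside -0.01 over all genes tested. With length and GC offsets 56 were called higher and 32 lower, where 33.5% and 42.4% of all genes were, and the median was 0.30. These shares of all genes, with and without offsets, also stand beside the counts of each list below. In the classes of exonic length, 26 of 44 genes under 4000 bases were called higher and 14 lower, 31 of 41 from 4000 to under 8000 bases were higher and 6 lower, and 18 of 21 genes of 8000 bases or more were higher and 2 lower. At least 2-fold higher in these classes were 15, 18 and 13 genes. Over all genes tested the share at least 2-fold higher also grew with length. It was 6.73% under 1000 bases, 9.80% between 1000 and 2000 and 18.7% between 2000 and 4000. For longer genes it was 27.1% between 4000 and 6000, 32.1% between 6000 and 8000, 36.7% between 8000 and 12000 and 43.7% above 12000. Shares of all genes called by length class are not given here.

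**Figure D4:**
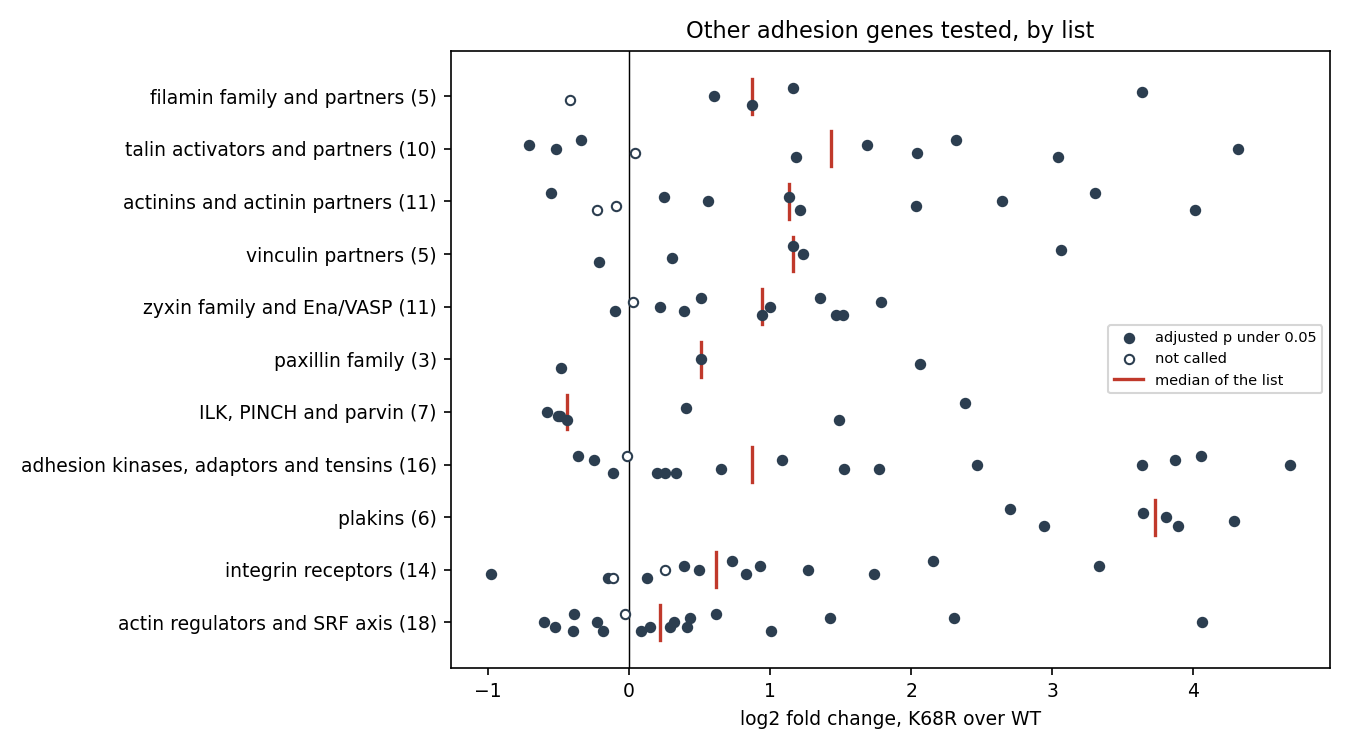
Log2 fold change of K68R over WT for the 106 other adhesion genes tested, one row per list with the number tested in parentheses. Filled points were called at an adjusted p under 0.05, open points were not, and the red line is the median of the list, which lies furthest right in the plakins at 3.73 and left of 0 in ILK, PINCH and parvin at -0.44.

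Relatives of the 9 genes ranged from a wide gap in Actn2 to a difference that was not called in Trip6. The muscle actinin Actn2 had 7.85 ± 0.455 CPM in K68R and 0.494 ± 0.186 CPM in WT, a difference of 4.01 (edgeR, adjusted p = 1.45e-31), with 4.19% of its exon overlapped on the other strand. Actn3, the actinin of fast muscle fibres, was also low, and its difference was 2.03 (edgeR, adjusted p = 1.32e-13). Lpp, which resembles zyxin, rose by 1.00 (edgeR, adjusted p = 3.99e-11), but was at -0.05 with length offsets and at 0.55 with length and GC offsets. Trip6, the third of that family, had 71.0 ± 2.39 CPM in K68R and 69.8 ± 2.10 CPM in WT, and its difference of 0.03 was not called (edgeR, adjusted p = 0.487).

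The plakins, the family of plectin, rose together: 6 of 6 tested were called higher, with a median of 3.73. Evpl and Eppk1, however, were barely detected without the knock-in. The WT libraries held 3, 2 and 7 read pairs of Evpl and 2, 1 and 0 of Eppk1. The K68R libraries held 34, 53 and 42 of Evpl and 14, 14 and 11 of Eppk1. The median lies between the differences of these genes, 3.65 and 3.80, and thus rests on few reads. With length and GC offsets 4 of 6 plakins were called higher and Evpl and Eppk1 were not called, with a median of 1.70. Dst, which encodes dystonin and links filaments at hemidesmosomes and in neurons, had 407 ± 4.67 CPM in K68R and 20.9 ± 0.263 CPM in WT, a difference of 4.29 (edgeR, adjusted p = 2.74e-81). Dsp, the desmoplakin gene of desmosomes, rose by 3.89 (edgeR, adjusted p = 4.78e-43), and Macf1, the linker of actin and microtubules, by 2.70 (edgeR, adjusted p = 4.17e-74). Beside this, all 6 epithelial markers were called lower in K68R, as were 40.5% of all genes tested. Their summed level was 18.4 to 20.5 CPM in K68R libraries and 46.0 to 47.6 CPM in WT libraries.

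Partners of the filamins, actinins and vinculin were mostly higher. Of 5 filamin partners, 4 were called higher and the other was not called. Among them was Svil, the supervillin gene, which rose by 1.16 (edgeR, adjusted p = 5.27e-39) and was at 0.20 with length and GC offsets. Of 11 actinin relatives and partners, 8 were called higher and 1 lower. These include Synpo, whose product synaptopodin binds actinin on stress fibres and which rose by 3.31 (edgeR, adjusted p = 3.26e-63; 0.63 with length and GC offsets), and Palld, whose product palladin holds actin bundles and which rose by 2.64 (edgeR, adjusted p = 2.83e-74). Of 5 vinculin partners, 4 were called higher and 1 lower, but with length and GC offsets 2 were higher and 3 lower. They include Sorbs2 at 3.06 (edgeR, adjusted p = 1.83e-59).

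Among 10 genes that activate talin or bind it, 6 were called higher and 3 lower. The Kank proteins, which bind talin and tie adhesions to microtubules, were on the higher side, with Kank2 at 3.04 (edgeR, adjusted p = 3.95e-66) and Kank1 at 2.32 (edgeR, adjusted p = 4.05e-50). Fermt2, the kindlin gene of fibroblasts, fell by 0.52 (edgeR, adjusted p = 1.71e-36). It was chosen after its value was seen, as were Ilk, Itgb1 and Actb below. The list of zyxin relatives and Ena/VASP proteins had 9 of 11 called higher and 1 lower, but 6 higher and 3 lower with length and GC offsets, where its median was 0.07 in place of 0.94. In it Enah, an Ena/VASP gene, rose by 1.79 (edgeR, adjusted p = 3.26e-58) and Ajuba by 1.52 (edgeR, adjusted p = 4.00e-52), which was 0.16 with length and GC offsets.

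The signalling layer of adhesions was divided. Of 16 kinases, adaptors and tensins tested, 12 were called higher and 3 lower, but with length and GC offsets 7 were higher and 5 lower. Git1, a scaffold that binds paxillin, had 120 ± 2.37 CPM in K68R and 4.62 ± 0.633 CPM in WT, a difference of 4.68 (edgeR, adjusted p = 5.96e-68). Tns2, a tensin gene, rose by 4.06 (edgeR, adjusted p = 5.72e-50), but 11.8% of its exonic bases overlap a gene on the other strand. Paxillin itself, whose gene Pxn overlaps a gene on the other strand in 3.63% of its exonic bases, rose by 2.06 (edgeR, adjusted p = 5.71e-53), but was at -0.15 with length and GC offsets, while its relative Tgfb1i1 rose by 0.51 (edgeR, adjusted p = 1.40e-29). The ILK, PINCH and parvin complex had 3 of 7 genes called higher and 4 lower, with a median of -0.44. It was the only one of the 11 lists with a median below 0 without offsets, while with length and GC offsets those of the vinculin partners (-0.24) and the paxillin family (-0.15) were below 0 too. Parvb rose by 2.38 (edgeR, adjusted p = 1.46e-52), Lims2 fell by 0.58 (edgeR, adjusted p = 1.69e-13), with 6.28% of its exon overlapped on the other strand, and Ilk fell by 0.44 (edgeR, adjusted p = 1.70e-31).

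At the membrane, 10 of 14 integrin genes were called higher and 2 lower, but 8 higher and 5 lower with length and GC offsets. Itga3, the chain of a laminin receptor, rose by 3.33 (edgeR, adjusted p = 6.32e-60), although 11.8% of its exon overlaps a gene on the other strand, and Itga5, the chain of the fibronectin receptor, by 2.16 (edgeR, adjusted p = 4.60e-68). Itgb1, the beta chain they share, had 2772 ± 26.4 CPM in K68R and 2539 ± 20.5 CPM in WT, a difference of 0.13 (edgeR, adjusted p = 4.00e-11). Itgb1 was at -0.25 with length offsets. With length and GC offsets the differences were 1.32 for Itga3, 0.51 for Itga5 and 0.36 for Itgb1.

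Of 18 actin regulators and genes of the SRF axis, 11 were called higher and 6 lower, with a median of 0.22. Mrtfa, the actin-sensing partner of SRF, rose by 4.06 (edgeR, adjusted p = 1.45e-62). Srf itself rose by 2.30 (edgeR, adjusted p = 9.52e-60), but was at -0.53 with length and GC offsets. Actb, the gene of beta-actin, had 4876 ± 128 CPM in K68R and 7011 ± 148 CPM in WT, a difference of -0.52 (edgeR, adjusted p = 2.66e-32), and 20.9% of its exonic bases overlap a gene on the other strand.

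Libraries held 26200088 to 31738219 read pairs assigned to genes in K68R and 30856781 to 40691447 in WT, and 3 read pairs correspond to 0.0728 to 0.116 CPM. The lowest member value was far above this floor. In all, 81.4% of the genes tested were called. Sod2, which carries the knock-in, averaged 47.2 ± 1.62 CPM in K68R and 70.0 ± 1.58 CPM in WT, and the counts do not read the altered base. Of 12 fibroblast markers, 5 were called higher and 6 lower in K68R, beside 40.8% and 40.5% of all genes tested. These shares also stand beside the marker counts that follow. The fibroblast sum ran from 11414 to 11513 CPM in K68R libraries and from 8018 to 8103 CPM in WT libraries. Of 8 smooth muscle markers 5 were higher and 2 lower (sums of 5225 to 5291 CPM in K68R and 5613 to 5652 CPM in WT), of 7 macrophage markers 2 were higher and 3 lower (133 to 139 CPM in K68R and 145 to 147 CPM in WT), and of 5 endothelial markers 2 were higher and 3 not called (96.1 to 97.9 CPM in K68R and 24.7 to 27.2 CPM in WT). Single genes carried much of these sums. Kdr alone had 90.7 CPM in K68R and 20.4 CPM in WT of the endothelial sum. Acta2 had 4671 CPM in K68R and 5311 CPM in WT of the smooth muscle sum. In the fibroblast sum Col1a1 had 2445 CPM in K68R and 165 CPM in WT, while Pdgfra, called lower, had 65.3 and 363 CPM. No marker was at 0 in all libraries, and the part of other cell types in the differences of the 9 genes was not tested.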

How the data were processed

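Poly(A) RNA, with an RNA integrity number above 4 and a stranded kit per the labels' protocols, was sequenced from 3 K68R and 3 WT libraries. The submitters' processing notes name mm39 as the build and list the tools featureCounts 2.0.6, HISAT2 2.2.1, SAMtools and bcl2fastq. The deposited values are raw counts, that is, read pairs assigned to the RefSeq exons of each gene, and per the file headers these were counted without a strand option and without multi-mapped reads, so that overlapping genes on opposite strands cannot be told apart and near-identical genes can lose reads. The deposited table also gives each gene's exonic length and exon positions.

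The counts were tested with edgeR 4.0.16 in R 4.3.3 (filterByExpr, TMM, robust quasi-likelihood F test, genotype alone in the model), and calls were made where p, adjusted by Benjamini-Hochberg over the whole table of tested genes, was under 0.05. The fit was also run on simulated counts with a single spread setting for all genes. Those counts are simpler than these data, so that run does not bear on the calls made here. Intervals of depth cover counting error only. Offsets were smooths per library fitted with mgcv 1.9.3. GC content came from GENCODE M21 transcripts (GRCm38) joined by symbol, for 93.7% of genes tested. The alternatives were DESeq2 1.42.0 (size factors and Wald test), limma-voom of limma 3.58.1, upper quartile scaling, other filters, a replicate block, a bound of 1.5-fold, an adjusted p under 0.01, both kinds of offsets and leaving out each library.

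The 9 genes and all lists were chosen with earlier results of these data known. The text names paralogues of the 9 genes, in each list the 2 called genes with the largest absolute log2 fold change among those averaging 5 CPM or more, Sod2, and the nearest gene by profile. Some genes that this rule names are not reported here, but stay in the counts of their lists. The labels number biological replicates but do not say whether they are separate embryos or cultures, so p-values refer to the spread among these 6 samples only, and that spread may be technical. Between 2 libraries, chi-square per gene was 1.85 to 2.24 within a genotype and 297 to 375 between genotypes, so all 6 were kept apart.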

Additional observations from a re-analysis of the deposited data

How the results depend on the processing

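All 9 genes were higher in K68R under every alternative except the offsets, which left 8 of 9 higher. Vcl was at -0.12 with length offsets, and Flna at -0.0017, next to no difference, with length and GC offsets. Of the other genes named, Lpp (-0.047), Atp2a2 (-0.14), Itgb1 (-0.25) and Xist (-0.65) turned with length offsets. Pxn (-0.15) and Srf (-0.53) turned with length and GC offsets, where Atp2a2 (-0.0046) had next to no difference. Trip6, not called in the report, was at -0.09 and called with upper quartile scaling, 0.16 and called with length offsets and -0.06 with length and GC offsets. Itgb1 at 0.01 with upper quartile scaling and Xist at 0.05 with length and GC offsets were not called. Against a bound of 1.5-fold, 6855 genes were called in place of 13613, and 53 other adhesion genes were called higher and 2 lower. Shares of all genes by direction under that bound are not given here. With length offsets 37 of the 106 other adhesion genes tested were called lower, where 48.7% of all genes tested were. The matching count called higher is not given here. Leaving out each library in turn gave 13403 to 13637 genes called, 73 to 76 other adhesion genes called higher and 21 to 23 lower. Upper quartile scaling moved the median of all genes to -0.12 and length offsets moved it to -0.21. The cause of these shifts was not tested. With the replicate number as a block 13567 genes were called, and 75 other adhesion genes were higher and 22 lower. Samples of the same number did not deviate together (correlations of -0.0095, 0.013 and 0.013). Depth did not limit the 9 genes, whose lowest library had 290 read pairs.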
